A study of Rattus norvegicus with 12 samples.

Results

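miR-101a and miR-101b are a pair of close paralogues of the miR-101 family, and their probes, rno-miR-101a and rno-miR-101b, were 2 of the 420 endogenous rat miRNA probes counted in maternal plasma. The pair was chosen by its measured values in this table, with the difference between pregnant and control rats already known, so that difference is described here without a test. The samples were platelet-free plasma from 12 female Wistar rats, 1 sample per rat. The pregnant group held 6 rats killed on gestation day E14.5, aged 103, 104, 110, 110, 269 and 373 days, and the control group held 6 non-pregnant rats aged 110, 111, 112, 112, 239 and 269 days. RNA of every rat received the rice spike-in osa-miR-414 and was hybridised to the Rat v1.5 miRNA codeset of the nCounter, in which each imaged barcode adds 1 count to its probe.

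A miRNA guides a silencing complex to messenger RNAs that pair with its seed, the bases near its 5′ end, and so lowers their translation or stability. The miR-101 family is known as a repressor of Ezh2, the methyltransferase of the Polycomb complex, and of Ptgs2, which encodes the prostaglandin synthase Cox-2. miRNA in plasma can come from blood cells, liver and other tissues, and plasma counts alone do not tell the source.

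The mature 3p sequences are shown because a single base separates the paralogues. They are printed 5′ to 3′ from RefSeq (GRCr8), with the base that differs in capitals.
rno-miR-101a-3p: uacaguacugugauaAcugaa
rno-miR-101b-3p: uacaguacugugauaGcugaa
Counted from 1 at the 5′ end, the substitution from miR-101a-3p to miR-101b-3p was A16G, and 20 of the 21 bases were identical. The deposited probe names give no arm, so the match to the 3p sequences, the usual guide strand of this family, is not stated by the files. The 5p arms differed at 5 of 22 positions. Whether either probe also counts the other paralogue was not tested.

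The hairpin of miR-101a, Mir101a, lies at chr5:121081683-121081757 on the minus strand of GRCr8, within the span of the long non-coding RNA gene LOC120102934. That of miR-101b, Mir101-2, lies at chr1:236273922-236274018 on the plus strand, within the span of the protein-coding gene Rcl1. Whether these positions are exonic or intronic was not examined here.

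With the seed (bases 2 to 8) in capitals, both paralogues read ACAGUAC. A search of the first 8 bases of 724 RefSeq mature miRNAs for the core ACAGUA (bases 2 to 7 of miR-101) found 4 entries, the pair itself, miR-144-3p and miR-199a-3p. They are shown because each was measured and holds this core. Probes whose names did not match RefSeq were not examined.
rno-miR-101a-3p: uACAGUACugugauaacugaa
rno-miR-101b-3p: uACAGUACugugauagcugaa
rno-miR-144-3p: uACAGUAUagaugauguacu
rno-miR-199a-3p: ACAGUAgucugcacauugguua
In miR-144-3p the seed ends in U in place of C. In miR-199a-3p, where the capitals mark the core and not the seed, the core begins at base 1, so its own seed, CAGUAGU, is another one.

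Both paralogues gave few counts. In control rats the raw count of miR-101a was lowest at 2, had a median of 6 and was highest at 12 (6.67 ± 3.27, SD, n = 6). In pregnant rats it was lowest at 1, had a median of 7 and was highest at 19 (8.67 ± 6.19, SD, n = 6). The groups overlapped, and the lowest and the highest value of all 12 rats were both in pregnant rats, replicate 3 with a value of 1 and replicate 5 with 19 counts. No endogenous probe was lower than 1 in replicate 3. The study took a signal to begin at a count of 2, so miR-101a was not detected in this rat by that limit.

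The raw count of miR-101b was 4, 4, 10, 10, 6 and 10 in control replicates 1 to 6 (7.33 ± 3.01, SD, n = 6). It was 11, 7, 13, 8, 27 and 17 in pregnant replicates 1 to 6 (13.8 ± 7.39, SD, n = 6). The groups overlapped here too, since pregnant replicates 2 and 4 had fewer counts than the 3 control rats with 10. The highest counts were in pregnant replicates 5 and 6, which also had the largest endogenous totals, 24010 and 30301 counts, against 5163 to 13102 in the other pregnant rats and 6969 to 10176 in controls.

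At this depth the counting error of a single rat was wide. A count of 4 had an exact 95% Poisson interval of 1.09 to 10.2, and the count of 27 one of 17.8 to 39.3, intervals that cover counting error only. The variance of the raw miR-101b count over its mean was 1.24 in controls and 3.94 in pregnant rats, where counting alone at equal totals gives 1. For miR-101a this ratio was 1.6 and 4.42. The totals were unequal, most of all in pregnant rats, so these ratios hold differences of total as well. As a share of all endogenous counts of a group, miR-101b made up 0.0819% in controls and 0.091% in pregnant rats, and miR-101a 0.0744% and 0.057%. These shares pool the rats of a group and so weight those with large totals. For miR-101a the mean of the per-rat shares had the opposite order, at 7.40 and 7.92 per 10000 counts. The median of the per-rat shares kept the pooled order, at 7.75 in controls and 6.47 in pregnant rats. Pregnant replicate 2, with the smallest total, was at 23.2 per 10000.

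**Figure D1:**
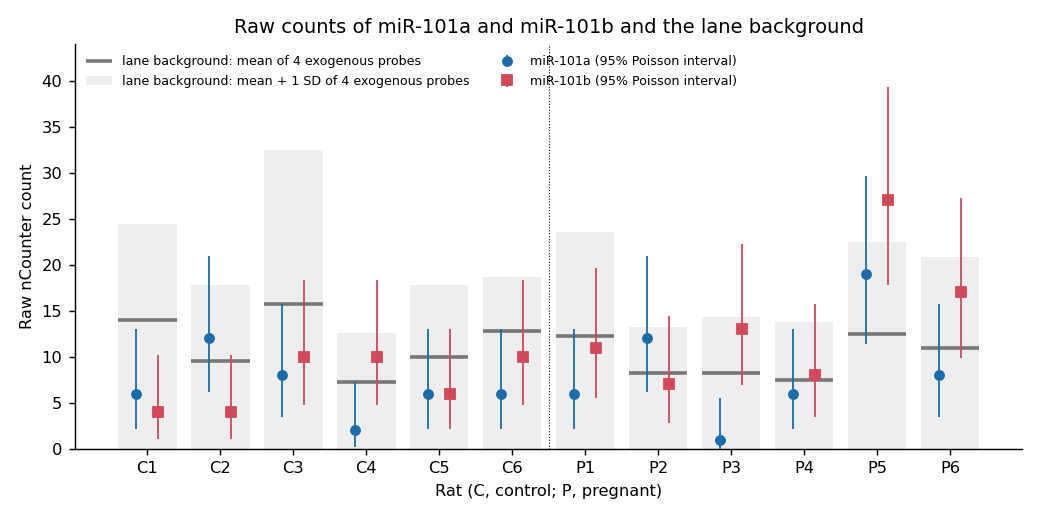
Raw nCounter counts (vertical axis) of miR-101a (circles) and miR-101b (squares) in the 6 control (C1 to C6) and 6 pregnant rats (P1 to P6), with exact 95% Poisson intervals; grey lines are the mean of the 4 unspiked exogenous probes in each lane, and grey bars that mean + 1 SD. Only miR-101b in pregnant replicate 5, at 27 counts, lies above a grey bar.

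Whether the pair stood above the noise of the assay was examined against 4 exogenous probes for which no spike-in was added. They stood in for the negative control probes, which were not used here. Their mean lay between 7.25 and 15.75 counts per lane, at 11.5 ± 3.17 in controls and 9.96 ± 2.22 in pregnant rats (SD, n = 6 each). The 4 probes were unequal, with 19.5 counts for ath-miR159a and 15.4 for cel-miR-254, but 4.5 for osa-miR442 and 3.58 for cel-miR-248 (means of 12 rats). miR-101b exceeded ath-miR159a in 2 rats and cel-miR-248 in 10, while miR-101a did so in 0 and 9.

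miR-101a was below the lane mean of the exogenous probes. Its log2 count minus the log2 of the lane mean averaged -0.77 (SD 1.04, n = 12), with 9 rats below the mean and 3 above (two-sided exact sign-flip permutation test, p = 0.021, adjusted p = 0.0271 over 420 probes). Of the 420 probes, 214 (51%) were called below the lane background by this test, so the call was shared with most probes of the table. The lane mean was pulled up by the high exogenous probes, and its log2 exceeds the mean of their log2 counts. A probe at noise level can thus be called below it. miR-101a exceeded cel-miR-248 and osa-miR442 in 9 rats each, but cel-miR-254 in 1 and ath-miR159a in 0. The call was lost without control replicate 1, control replicate 4 or pregnant replicate 3, with adjusted p = 0.0513, 0.0528 and 0.053 in the exact test, and when the background came from the 4 mRNA probes (-0.61, adjusted p = 0.114).

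miR-101b was not told apart from the lane background. Its log2 count minus that of the lane mean averaged -0.19 (SD 0.846, n = 12), with 5 rats above the mean and 7 below (two-sided exact sign-flip permutation test, p = 0.461, adjusted p = 0.49 over 420 probes). By comparison, 127 probes (30.2%) were called above it. The 5 rats above the mean were 1 control and 4 pregnant rats. The mean difference was -0.72 ± 0.775 in controls and 0.35 ± 0.532 in pregnant rats (SD, n = 6 each), which is again the contrast that chose the pair and was not tested.

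Above mean + 1 SD of the exogenous probes, miR-101b was found in 1 rat and miR-101a in 0 of 12, while 190 of the 420 probes passed this level in at least 1 rat. Neither was above mean + 2 SD in any rat, a level that 130 probes passed in at least 1 rat. By mean raw count miR-101b ranked 182 of 420 and miR-101a ranked 223, both in the middle of the panel.

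By mean count, both probes that share the seed core were above the pair. In single rats miR-199a-3p had more counts than either paralogue in 12 of 12, and miR-144 in 10 of 12, with 1 tie and 1 lower value against each. miR-144, a miRNA of erythroid cells transcribed together with miR-451, had 32.5 ± 43.1 raw counts (SD, n = 12), with 143 and 102 in pregnant replicates 5 and 6 and 7 to 21 in the other 10 rats, and was above the lane background (adjusted p = 0.0145 over 420 probes, exact sign-flip permutation test). miR-199a-3p, best known from fibroblasts and other mesenchymal cells, had 60.9 ± 58.4 counts, from 14 to 192, and was also above it (adjusted p = 0.000949, the same exact test). Their differences between the groups did not pass the test, with log2 fold changes of 1.31 (SE 0.51) for miR-144 and -0.44 (SE 0.58) for miR-199a-3p (edgeR quasi-likelihood test, adjusted p = 0.67 and 0.903). miR-144 was among the 3 measured red cell markers tested, which are described with the other lists below.

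**Figure D2:**
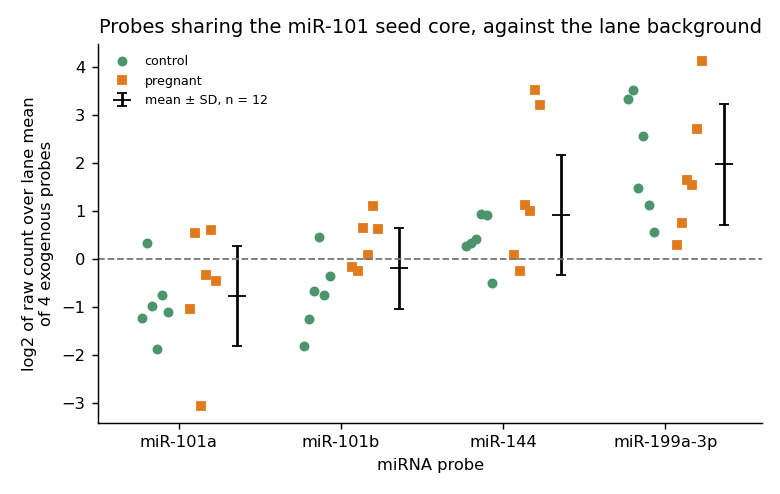
Log2 of the raw count over the lane mean of the 4 exogenous probes (vertical axis) for miR-101a, miR-101b, miR-144 and miR-199a-3p in control (circles) and pregnant rats (squares), with the mean ± SD of all 12 rats in black. The means are -0.77, -0.19, 0.93 and 1.98, and the dashed line marks equality with the lane background.

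To compare rats of unequal totals, counts were scaled with TMM factors (trimmed mean of M-values) to CPM, the count relative to the rat's scaled library. The factors and the fit used the probes that reached 10 counts in 6 rats or more. On the CPM scale miR-101b was at 385, 472, 987, 1155, 766 and 1001 CPM in control replicates 1 to 6 (794 ± 310, SD, n = 6). It was at 1250, 881, 1641, 1077, 1869 and 1244 CPM in pregnant replicates 1 to 6 (1327 ± 365, SD, n = 6). All 6 pregnant rats were above the control mean and 4 of them above the highest control rat, while 3 controls were below the lowest pregnant rat, so the groups overlapped.

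The fitted log2 fold change of miR-101b, pregnant over control, was 0.77 (SE 0.27), or 1.70-fold. It passed the filter on low counts with at least 10 counts in 7 rats, 3 control and 4 pregnant. Of the 187 probes in this fit 0 (0%) passed an adjusted p of 0.05 by edgeR, 11 (5.88%) had an unadjusted p under 0.05, 10 of them (5.35%) higher in pregnant rats, and the smallest adjusted p was 0.67. DESeq2 and limma-voom also called 0, with 8 and 6 probes at an unadjusted p under 0.05. The direction of such probes depended on the scaling. In edgeR, 1 of 13 was higher in pregnant rats with total endogenous count scaling, and 8 of 10 with DESeq2 size factors. No probe (0%) had groups without overlap in log2 CPM, and 3 (1.6%) had all 6 pregnant rats above the control mean, miR-101b among them. These shares come from the contrast that chose the pair and are given as its background.

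miR-101a did not pass the filter, with at least 10 counts in 3 rats. Its fold change comes from the fit on all 420 probes, while its CPM use the library sizes and TMM factors of the filtered probes. miR-101a was at 577, 1417, 789, 231, 766 and 601 CPM in control replicates 1 to 6 (730 ± 391, SD, n = 6). It was at 682, 1511, 126, 807, 1315 and 585 CPM in pregnant replicates 1 to 6 (838 ± 505, SD, n = 6). Only pregnant replicate 2 was above the highest control rat, pregnant replicate 3 was below the lowest, and on the log2 CPM scale 4 of 6 pregnant rats were above the control mean of 9.77, with replicate 1 just over it at 9.80. The fitted log2 fold change was 0.28 (SE 0.44), an error larger than the value, against 0.81 (SE 0.31) for miR-101b in the same fit.

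**Figure D3:**
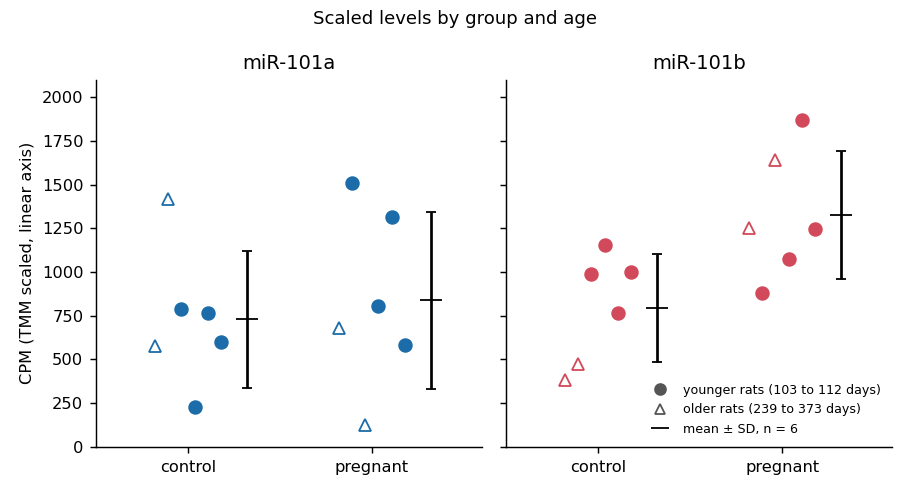
TMM-scaled CPM (vertical axis, linear) of miR-101a and miR-101b in control and pregnant rats, with filled circles for rats of 103 to 112 days, open triangles for rats of 239 to 373 days and black bars for the mean ± SD of 6 rats. For miR-101b the 2 older controls, at 385 and 472 CPM, are the lowest of all 12 rats.

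The 2 older rats of each group carried much of the miR-101b difference. Among rats of 239 days or more, the mean log2 CPM of miR-101b was 9.31 ± 0.14 in controls and 10.68 ± 0.24 in pregnant rats (SD, n = 2 each), a difference of 1.37. Among the 4 rats under 120 days in each group it was 10.20 ± 0.20 and 10.48 ± 0.40 (SD), a difference of 0.28. For the younger rats alone the fitted log2 fold change was 0.41, against 0.77 for all rats.

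For miR-101a the age classes were ordered the other way. Its difference in mean log2 CPM, pregnant minus control, was 0.65 in the younger rats and -1.05 in the older ones. The latter rests in part on the value of 1 in the 373-day pregnant rat, which is below the study's limit for a signal. The difference between the age classes was not tested for either miRNA, and with 2 older rats in each group it rests on 4 animals.

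The size of both differences depended on how the rats were scaled. When each rat was scaled to its total endogenous count, the log2 fold change of miR-101b was 0.21 and that of miR-101a -0.15, while the median of all tested probes moved from 0.05 to -0.33. Relative to that median miR-101b was at 0.72 with TMM and 0.54 with total counts, and miR-101a at 0.23 and 0.18. Per 10000 endogenous counts, miR-101b was 8.42 ± 3.67 in controls and 10.2 ± 2.96 in pregnant rats, and miR-101a 7.40 ± 3.18 and 7.92 ± 7.98 (SD, n = 6 each).

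The study processed its counts through 14 workflows, which combine no background correction, subtraction or thresholding, at a background of mean, mean + 1 SD or mean + 2 SD, with content normalisation to either many expressed probes (total RNA) or the most stable ones (NormFinder). These were run here with the exogenous probes as the background. The log2 ratio of group means, pregnant over control, of miR-101b was 0.65 and 0.61 in the 2 workflows without background correction. With subtraction of the mean it was 1.44 with NormFinder and 1.22 with total RNA, but 8 of the 12 rats then stood at the floor of 1 count before scaling.

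At the stricter backgrounds little of either miRNA was left to compare. With mean + 2 SD, by subtraction or thresholding, miR-101b stood at the floor in all 12 rats and its ratio, -0.38 to -0.12, was that of the scaling factors or the lane background alone. Over the 14 workflows the ratio of miR-101b was positive in 8 and negative in 6, and that of miR-101a, from -0.38 to 0.91, positive in 5 and negative in 9. Where the miR-101b ratio was negative, 10 to 12 rats stood at the floor, and 0 to 11 where it was positive. For miR-101a these were 9 to 12 and 0 to 10, so the signs do not separate the miRNAs from the floor. The groups overlapped in all 14 workflows for both.

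**Figure D4:**
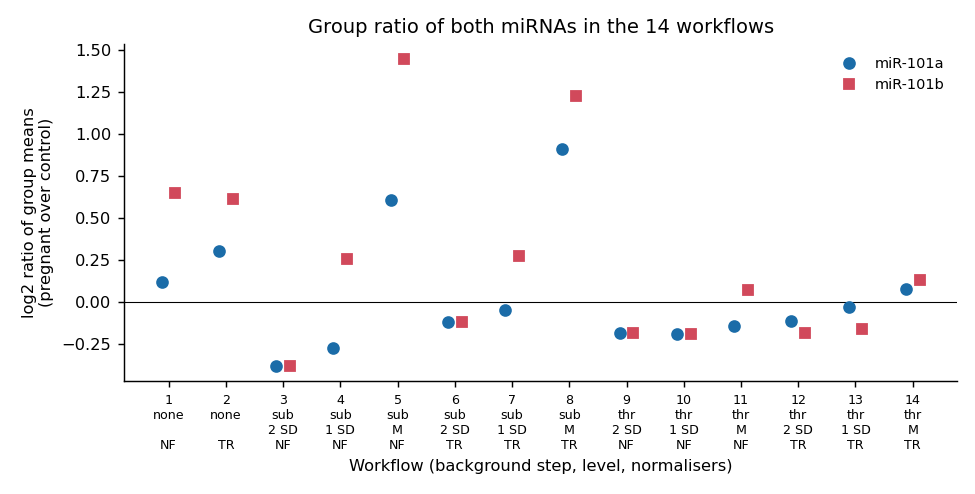
Log2 ratio of group means, pregnant over control (vertical axis), of miR-101a (circles) and miR-101b (squares) in the 14 workflows, named under the axis by background step (none, subtraction, thresholding), level (mean, 1 SD or 2 SD above it) and normalisers (NF, NormFinder; TR, total RNA). The ratio of miR-101b runs from -0.38 to 1.44, and both miRNAs have the same value where all 12 rats stand at the floor for both.

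Rat by rat, no common movement of the paralogues was detected. The count of miR-101b was above that of miR-101a in 8 rats, 3 control and 5 pregnant, equal in control replicate 5 and below in control replicates 1 and 2 and pregnant replicate 2. Of both counts together, miR-101b made up 52.4% in controls and 61.5% in pregnant rats, pooled over 6 rats each. In single rats the share ran from 25% in control replicate 2 (95% Wilson interval 10.2 to 49.5%) to 92.9% in pregnant replicate 3 (68.5 to 98.7%). The latter share rests on a miR-101a value of 1, below the study's limit for a signal, and its interval treats that value as a count. Probes differ in efficiency, so these shares compare rats and not the amounts of the paralogues.

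Over the 12 rats, log2 CPM of miR-101a and miR-101b had a Pearson correlation of -0.29 (permutation p = 0.36, adjusted p = 0.675 over 15 relations) and a Spearman rho of -0.26 (permutation p = 0.419, adjusted p = 0.718). Without control replicates 1 and 2, the rats farthest from the median of miR-101b, r was -0.26. Without pregnant replicate 3, whose miR-101a value was 1, r was -0.07. Within the groups it was -0.54 in controls and -0.37 in pregnant rats. The sign depended on the scale, since r was 0.18 with total count scaling and 0.18 after the lane background had been subtracted.

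**Figure D5:**
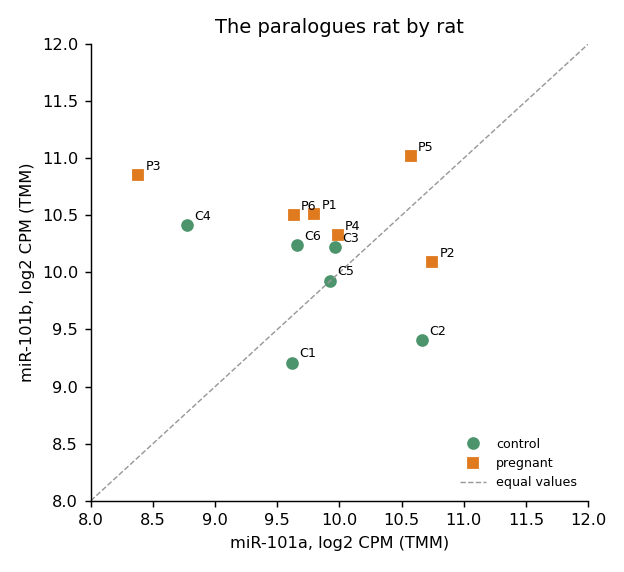
TMM log2 CPM of miR-101b (vertical axis) against miR-101a (horizontal axis) in each control (circles, C1 to C6) and pregnant rat (squares, P1 to P6), with a dashed line of equal values. The correlation is -0.29, and pregnant replicate 3 has the lowest miR-101a, at 126 CPM from a value of 1, with 1641 CPM of miR-101b.

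The other 14 relations tied each paralogue to miR-144, miR-199a-3p, miR-451, miR-122, miR-126, the mean of the exogenous probes and the total endogenous count, and none passed, with a smallest adjusted permutation p of 0.526 for Pearson's r and 0.555 for Spearman's rho. The relation of miR-101b with miR-144 had r = 0.51 (adjusted permutation p = 0.526), and r = 0.60 without control replicates 1 and 2, but -0.05 within controls and 0.69 within pregnant rats. That with the total endogenous count had r = 0.46 (adjusted permutation p = 0.526), -0.36 within controls and 0.67 within pregnant rats. The relation of miR-101b with miR-451 had r = 0.48 (adjusted permutation p = 0.526), and 0.54 without control replicates 1 and 2. Its sign was the same in both groups, at 0.71 within controls and 0.68 within pregnant rats. This held for other relations too, among them miR-101b with miR-126 (0.24 and 0.45) and with the mean of the exogenous probes (-0.24 and -0.24). miR-101a with miR-451 was negative in both groups, at -0.91 and -0.12.

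The 5 probes most like miR-101b over the 12 rats, by Spearman's rho of log2 CPM, were miR-191 (0.73), miR-215 (0.71), miR-429 (0.70), miR-203 (0.60) and miR-200a (0.59). Of the 186 other probes in the filter, 149 were more like miR-101b than miR-101a was. Those most like miR-101a were miR-219-5p (0.66), miR-3584-3p (0.57), miR-876 (0.54), miR-615 (0.51) and miR-200c (0.49), and the lists share no probe. All are scaled with the same factors, and the rhos run over both groups, so they hold the difference that chose the pair as well. All 5 probes most like miR-101b had positive log2 fold changes, from 0.14 for miR-429 to 2.35 for miR-215, and the rhos are given as a description.

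Other miRNAs reported to act on the targets of miR-101 were taken as lists. Of 9 repressors of Ezh2 (miR-26, miR-138, miR-214, miR-124, miR-98 and let-7 members) 6 were in the filter, 0 were called by edgeR (0 at an unadjusted p under 0.05, beside 0% and 5.88% of all 187 probes), and their median log2 fold change was 0.11, against 0.05 for all 187 probes. Of 5 repressors of Cox-2 (miR-199a-3p, miR-146a, miR-143, miR-16 and miR-26b) all were in the filter, 0 were called (0 unadjusted, beside the same shares), and the median was 0.38. miR-26b stood in both lists at 0.38 (SE 0.39).

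Markers of cells that feed plasma were measured beside the pair. The red cell, platelet and leukocyte lists, with 3, 4 and 4 probes in the filter, had median log2 fold changes of 0.76, 0.72 and 0.54, the liver list 1.33 over 2 probes and the muscle list -0.18 over 3, with 0 called by edgeR in each. At an unadjusted p under 0.05 were miR-144 of the red cell and miR-192 of the liver list, a level that 5.88% of all 187 probes reached and 5.35% reached with higher values in pregnant rats. The lists overlap, with miR-16 in the red cell and platelet lists and miR-223 in the platelet and leukocyte lists. The red cell median was the value of miR-16 (0.76, SE 1.07), whose counts ran from 1 to 1861 and whose mean log2 CPM had the opposite order, 14.89 in controls and 13.41 in pregnant rats. The summed red cell markers ran from 37666 to 143979 CPM in controls and from 7553 to 308732 CPM in pregnant rats, and the platelet markers from 30936 to 73664 and from 5413 to 209162 CPM. None of the 4 brain markers passed the filter, miR-24 and miR-208 had a value of 1 in every rat, and miR-486 and miR-155 were not matched by name. The part of these sources in the miR-101b difference was not tested.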

How the data were processed

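Plasma miRNA of 12 rats, 6 pregnant and 6 control, was grouped by the sample titles, with 1 sample per rat. The authors deposited raw counts per probe of the Rat v1.5 codeset, without background correction or normalisation. The table holds 429 probes: 420 endogenous, 5 exogenous and 4 mRNA, and 0 sample columns went unused. Endogenous totals were 5163 to 30301 counts per rat.

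The members, lists and tests were chosen with earlier results of these data known. Probes that reached 10 counts in 6 rats or more were fitted with edgeR 4.0.16 (quasi-likelihood, TMM, Benjamini-Hochberg, two-sided), with DESeq2 1.42.0 and limma 3.58.1 (R 4.3.3) as alternatives. Library sizes were the sums of the filtered probes. A first fit used all endogenous counts, and the other convention was adopted after its values had been seen, to follow an earlier processing of the same table. Probes outside the filter were taken from the fit on all 420 probes. Log2 CPM used a prior count of 2. SE was the fold change over the root of F.

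Lane background came from the 4 unspiked exogenous probes (their mean and SD per rat), a stand-in known from earlier work on this table. Per-rat log2 differences from it were tested over all 4096 sign assignments and adjusted over 420 probes, where the plan had named the pair alone. Correlations used 100000 resamples. The 14 workflows used no positive control scaling. Their total RNA normalisers were 38 probes above mean + 1 SD in all rats, and NormFinder normalisers the 5 most stable of these. Named probes were the pair, probes sharing the seed core, the 5 most like each paralogue and lead markers of the lists. For sequences, 162 probe names matched RefSeq (GRCr8) as written and 202 after an arm was added. The fits were tested on simulated data. Python was 3.11.15.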

Additional observations from a re-analysis of the deposited data

How the results depend on the processing

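The count of probes called between the groups was 0 under all 24 alternatives, while the number at an unadjusted p under 0.05, 11 in the fit reported, was 20 without a filter on low counts, 4 with total RNA scaling, 3 with the replicate block, 6 by limma-voom, and 7 without control replicate 5, 7 without pregnant replicate 6 and 19 without pregnant replicate 2. Of the probes at this level, 10 of 11 were higher in pregnant rats in the fit reported. The same count was 8 of 10 with DESeq2 size factors, 4 of 4 with total RNA, 5 of 13 with NormFinder and 1 of 13 with total count scaling. It was 2 of 7 without pregnant replicate 6 and 4 of 8 without pregnant replicate 5, but 8 of 9 without control replicate 6. Replicate numbers did not pair the rats: the deviations of same-numbered rats correlated between -0.34 and 0.27, and 1 of 6 controls correlated best with its own number. With the replicate block the log2 fold change was 0.75 for miR-101b and 0.20 for miR-101a.

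Moves were set against the SD of log2 CPM between rats within the groups, 0.42 for miR-101b and 0.74 for miR-101a. This SD is not the error of a difference of group means. For miR-101b, 23 of 36 alternatives moved the log2 fold change of 0.77 by less than this SD, and gave 0.41 to 0.89. Among them were 0.69 with library sizes from all endogenous counts and 0.56 (SE 0.35) without pregnant replicates 5 and 6, both chosen after seeing the data. Without these rats miR-101b did not pass the filter on low counts, so the 0.56 comes from the fit on all probes. Without each rat in turn the fold change was 0.59 to 0.89. It was 0.21 with total count scaling. In workflows 3 to 14, in order, it was -0.38, 0.26, 1.44, -0.12, 0.27, 1.22, -0.18, -0.19, 0.069, -0.18, -0.16 and 0.13. For miR-101a all 36 alternatives, from -0.38 to 0.91, moved the fold change of 0.28 by less than its SD between rats. They included both signs, so its direction was not settled. Without each rat in turn the fold change was 0.01 to 0.56.

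Against the lane background, miR-101b stood at -1.12 (adjusted p = 0.00138, exact sign-flip permutation test) when the highest exogenous probe was the background, and between -0.38 and -0.02 under the other 14 alternatives. miR-101a was at -0.61 (adjusted p = 0.114, exact test) with the mRNA probes as the background, and -0.90 to -0.56 without each rat in turn. The correlation of the paralogues turned to 0.18 with total count scaling (permutation p = 0.565) and 0.18 with the lane background subtracted (permutation p = 0.568), and was -0.55 to -0.07 without each rat in turn. The causes were not tested. With 4 to 27 counts of miR-101b and 1 to 19 of miR-101a per rat, counting error limits every value.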
